A study of Mus musculus with 16 samples.

Results

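Retinoic acid synthesis and response were described in mouse spleen through 9 genes, chosen by symbol because together they cover uptake of the precursor, synthesis, intracellular binding and the receptors. All 9 were found among the 54838 gene identifiers of the count table: Stra6, Aldh1a1, Aldh1a2, Aldh1a3, Crabp1, Crabp2, Rara, Rarb and Rarg. The study sequenced RNA from spleens of C57BL/6 mice in 16 samples, 8 size-selected and 8 whole spleen, to find genes enriched in spleen glia. For a size-selected sample, a minced and enzyme-digested spleen was freed of red cells and strained, and what the strainer held back was lysed. The labels call this source glia of the spleen. Whole spleen is the reference, with no preparation of its own given in the labels. Males and females number 4 each per group. The 8 numbers (407, 408, 427 and 435 in males, 436, 445, 447 and 460 in females) each name 1 sample per group. The labels give no genotype, treatment or age, and do not say whether a sample is 1 animal or a pool.

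Retinoic acid is made from vitamin A in steps. Retinol carried in blood enters cells through the receptor STRA6, is oxidised to retinaldehyde, and is then oxidised irreversibly to retinoic acid by the retinaldehyde dehydrogenases encoded by Aldh1a1, Aldh1a2 and Aldh1a3. CRABP1 and CRABP2 bind retinoic acid in the cytosol, CRABP2 delivers it to the nucleus, and the receptors RARA, RARB and RARG switch genes on or off as partners of the RXR receptors, while CYP26 enzymes break it down. In the spleen, retinoic acid is known for its part in the growth of the embryonic organ, where the transcription factors TLX1 and WT1 act on its synthesis and breakdown, and in the adult for its effects on lymphocyte homing and dendritic cells.

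Size-selected totals ran from 13119992 to 19944440 estimated counts and whole spleen totals from 12153770 to 16282454. A count of 10, the minimum of the filter, came to about 0.686 CPM (counts scaled to a common library size, TMM-scaled). Of 14510 genes tested with edgeR's quasi-likelihood test, 9855 had a Benjamini-Hochberg adjusted p under 0.05, the threshold for every gene called here. The median log2 fold change (size-selected over whole spleen) of all genes tested was 0.05. It was 0.18 when library totals replaced TMM scaling, and every fold change shifts with that choice. The summed level of 8 glial markers was 69.6 to 548 CPM in size-selected samples and 0.622 to 3.1 CPM in whole spleen. Stromal lists stood apart in the same direction: 8 fibroblast markers summed to 1070 to 3790 against 5.02 to 59.7 CPM, 8 endothelial markers to 776 to 1960 against 86 to 228 CPM, 6 smooth muscle markers to 818 to 3840 against 8.69 to 73.4 CPM and 8 mesothelial markers to 48.9 to 325 against 1.68 to 6.45 CPM. B cell markers were at 962 to 3400 against 5310 to 6560 CPM and T cell markers at 135 to 338 against 380 to 618 CPM. Neutrophil markers were at 91.3 to 863 against 511 to 1890 CPM, and erythroid markers at 107 to 3510 against 278 to 13700 CPM. Red pulp macrophage markers were at 2570 to 5880 against 1260 to 2720 CPM, and dendritic cell markers at 149 to 211 against 112 to 174 CPM. All markers tested in the 5 stromal and glial lists were called higher, and 5 of 6 B cell, 5 of 6 T cell, 6 of 6 neutrophil and 2 of 6 erythroid markers lower. Of 6 red pulp macrophage markers 3 were called higher and 0 lower, and of 6 dendritic cell markers 1 higher and 3 lower. Hepatocyte and adipocyte markers summed to at most 1.32 and 1.02 CPM. The 6 pancreatic acinar markers summed to 11.5 to 36.4 against 12.1 to 26.2 CPM, mainly through Cela1 (means 22.1 and 16.8 CPM). What part these other cell types have in any result on the 9 genes was not tested. In these bulk samples, fewer cells of a type and less RNA per cell cannot be told apart.

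In the size-selected samples the uptake receptor, all 3 synthesis enzymes and the receptors Rarb and Rarg were higher than in whole spleen, and Rara was lower. Means differed by 2.13-fold for Rarg, 6.9-fold for Aldh1a1, 7.24-fold for Aldh1a2, 9.58-fold for Stra6, 10.1-fold for Aldh1a3 and 11.8-fold for Rarb. Rara was at 0.737 times its whole spleen mean. Crabp1 had counts in size-selected samples only, 35 in all, and Crabp2 was close to absent from both groups. Of the 9 genes, 7 passed the count filter, and 6 of these were called higher and 1 lower. Over all genes tested, 37.5% were called higher and 30.4% lower. Aldh1a2, Aldh1a3, Rarb and Stra6 reached the filter level in 1 to 4 of 8 whole spleen samples, so they entered the test through the size-selected samples in which they are high, and the count of calls is a description only. By fold change, Rarb lay at the 90.3rd percentile of all genes tested, Aldh1a3 at 89.4, Stra6 at 89, Aldh1a2 at 87.5, Aldh1a1 at 87.4, Rarg at 76.2 and Rara at 27.2.

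**Figure D1:**
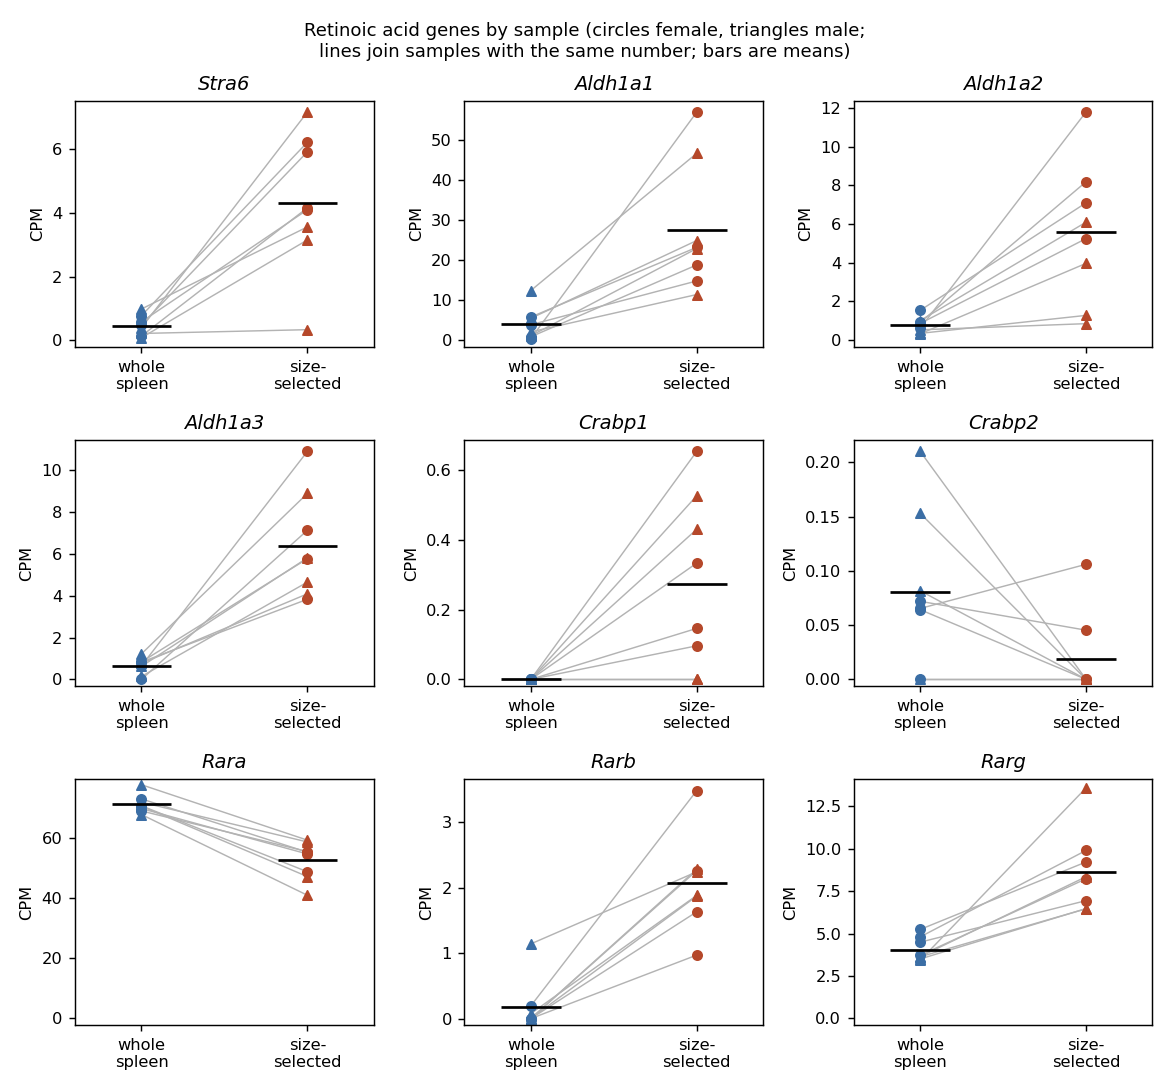
CPM of each of the 9 genes in whole spleen (blue) and size-selected samples (red), with grey lines joining samples of the same number, circles for females, triangles for males and black bars for group means; the vertical axes are linear and differ between genes. Lines rise in 8 of 8 pairs for 6 genes and fall in 8 of 8 for Rara, and whole spleen 427 (1.14 CPM of Rarb) and size-selected 435 (0.329 CPM of Stra6) stand apart.

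Stra6 (ENSMUSG00000032327, chromosome 9, 58063788 to 58153996, plus strand, GRCm38) encodes the membrane receptor that takes up retinol from its carrier in blood. Its level in the size-selected samples was 0.329 CPM at the lowest, 4.13 at the median and 7.17 at the highest. In whole spleen it was 0.0763, 0.435 and 0.979 CPM. The lowest size-selected sample, 435, lay inside the whole spleen range, and the other 7 lay above every whole spleen sample. The mean was 4.33 ± 2.15 CPM (SD, n = 8) against 0.452 ± 0.317 CPM (SD, n = 8). This is a log2 difference of 3.25 ± 0.51 (SE, edgeR adjusted p = 1.67e-05), with Stra6 higher in 8 of 8 pairs. Pairs differed by as little as 0.43 (number 435) and by as much as 4.03 (number 447) on the log2 scale.

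Aldh1a1 (ENSMUSG00000053279, chromosome 19, 20492715 to 20643465, plus strand) encodes the first of the retinaldehyde dehydrogenases and had the highest mean level of them in both groups, though Aldh1a2 exceeded it in whole spleen 436 and 460. Size-selected samples held 11.4, 23.0 and 57.0 CPM (lowest, median, highest) and whole spleen samples 0.359, 2.96 and 12.4 CPM. Only size-selected 408, the lowest, fell below the highest whole spleen sample, 427. The mean was 27.5 ± 15.9 CPM against 3.98 ± 3.99 CPM (SD, n = 8 each), and the log2 fold change, with its SE, was 2.79 ± 0.54 (edgeR adjusted p = 0.000151), higher in 8 of 8 pairs. The pairs were uneven, from 1.90 (numbers 427 and 447) to 6.86 (number 436) on the log2 scale. The largest of these came from the highest size-selected sample and the lowest whole spleen sample, both numbered 436. Without both samples of that number the log2 fold change was 2.37, and without whole spleen 427 it was 3.29.

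Aldh1a2 (ENSMUSG00000013584, chromosome 9, 71215789 to 71296243, plus strand) encodes the enzyme that makes most of the retinoic acid of the early embryo and is known in adult mesothelium. Its size-selected levels were 0.852, 5.67 and 11.8 CPM and its whole spleen levels 0.326, 0.741 and 1.54 CPM. Size-selected 408 and 435 lay within the whole spleen range and the other 6 above it. Means were 5.57 ± 3.62 and 0.77 ± 0.403 CPM (SD, n = 8 each). The log2 fold change, with its SE, was 2.83 ± 0.48 (edgeR adjusted p = 3.65e-05), and 8 of 8 pairs were higher, by 0.56 (number 408) to 3.99 (number 445).

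Aldh1a3 (ENSMUSG00000015134, chromosome 7, 66390890 to 66427517, minus strand), the third enzyme of the family, had groups that did not overlap. Size-selected samples were at 3.83, 5.79 and 10.9 CPM and whole spleen samples at 0, 0.705 and 1.22 CPM. Its SD in the size-selected samples, 2.47 CPM around a mean of 6.39, was the smallest of the 3 enzymes relative to the mean, and the whole spleen mean was 0.632 ± 0.394 CPM (SD, n = 8 each). The log2 fold change, with its SE, was 3.33 ± 0.43 (edgeR adjusted p = 1.69e-06), higher in 8 of 8 pairs, by 2.05 to 5.77.

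The makeup of the enzyme family, as shares of the summed counts per kilobase of longest annotated transcript, did not differ between the groups beyond the spread of the samples. Aldh1a1 gave 71.0 ± 11.8% in size-selected and 62.9 ± 28.7% in whole spleen samples (SD, n = 8 each; two-sided exact permutation p = 0.471). Aldh1a2 gave 16.5 ± 11.5% and 25.3 ± 20.8% (exact permutation p = 0.305), and Aldh1a3 12.5 ± 3.81% and 11.8 ± 9.18% (exact permutation p = 0.836). Whole spleen shares rest on 26 to 171 counts per sample, and Aldh1a1 ran from 21.1% to 92.2% there. The shares in whole spleen thus varied widely from sample to sample. Within the size-selected group, Aldh1a2 ran from 4.52% in sample 435 to 32.3% in sample 445.

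Crabp1 (ENSMUSG00000032291, chromosome 9, 54764748 to 54773110, plus strand) encodes a cytosolic binding protein for retinoic acid. It had 8, 0, 6, 0, 12, 2, 5 and 2 counts in size-selected 407, 408, 427, 435, 436, 445, 447 and 460, and 0 in all 8 whole spleen samples. It did not pass the count filter. Set against a floor of 3 counts over the whole spleen group, the 35 counts gave a ratio of 11 between the summed groups. This ratio leaves out the counting error of the 35 counts and the spread between samples, so it is no lower limit. It is 1 of 2 of the 9 genes in the authors' deposited table, which holds 2201 genes, none under a log2 fold change of 3.5. That authors' deposited table gives Crabp1 a log2 fold change of 4.41, an adjusted p of 0.00207 and mean TPM of 0.578 and 0. With no count filter, edgeR called it as well (adjusted p = 0.00211). Crabp2 (ENSMUSG00000004885, chromosome 3, 87948666 to 87953376, plus strand), whose protein carries retinoic acid to the receptors, had 9 counts over whole spleen, at most 3 in a sample, and 2.43 estimated counts over size-selected samples, in 2 of 8. At this depth no difference was detectable for Crabp2: without a filter, edgeR put it at -1.54 ± 0.87 (SE, adjusted p = 0.157) on the log2 scale.

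Rara (ENSMUSG00000037992, chromosome 11, 98927818 to 98974942, plus strand), the receptor gene that blood cells are known to use, was the one gene of the 9 called lower in the size-selected samples. Its levels there were 40.9, 54.9 and 59.2 CPM, against 67.7, 70.5 and 77.6 CPM in whole spleen. The groups did not overlap. Means were 52.5 ± 6.32 and 71.2 ± 3.03 CPM (SD, n = 8 each). The log2 fold change, with its SE, was -0.44 ± 0.08 (edgeR adjusted p = 8.31e-05), lower in 8 of 8 pairs, by amounts from 0.29 (pair difference -0.29, number 435) to 0.72 (-0.72, number 427). On library totals it was -0.31 (edgeR adjusted p = 0.00628), on a scale whose median over all genes was 0.18. Rara was lowest in size-selected 427, the sample with the highest summed endothelial (1960 CPM) and smooth muscle (3840 CPM) markers.

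Rarb (ENSMUSG00000017491, chromosome 14, 16430839 to 16819156, minus strand) encodes the receptor best known as itself a target of retinoic acid. It had 0 counts in 5 of 8 whole spleen samples and 1.0, 3.02 and 13.97 estimated counts in samples 408, 460 and 427. Its size-selected levels were 0.969, 2.06 and 3.48 CPM, and whole spleen 427, at 1.14 CPM, alone lay inside that range. Means were 2.08 ± 0.715 and 0.176 ± 0.395 CPM (SD, n = 8 each). The log2 fold change, with its SE, was 3.57 ± 0.70 (edgeR adjusted p = 0.00017), higher in 8 of 8 pairs. The size depends on the samples and the fit. Without whole spleen 427 it was 5.43 (SE 0.58), and without both samples of that number 5.42. With all samples it was 4.33 with the replicate block and 4.67 by limma-voom. Whole spleen 427 also held the highest summed levels of its group in all 5 stromal and glial lists: fibroblast (59.7 CPM), endothelial (228 CPM), smooth muscle (73.4 CPM), mesothelial (6.45 CPM) and glial (3.1 CPM), and the part of these cells in its Rarb counts was not tested. The authors' deposited table gives Rarb a log2 fold change of 3.52 and mean TPM of 1.44 and 0.0688.

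The promoter of Rarb is shown because a response element for retinoic acid receptors is its textbook feature, beside that of Cyp26a1, the breakdown enzyme with the same textbook role as a target. The 300-base windows from 250 bases before to 50 after each RefSeq start (GRCm38.p6) held 7 of the 9 genes, in 15 windows. Aldh1a3 and Crabp2 had no window. Direct repeats of a 6-letter half-site (A or G, then G, then G or T, then TCA) with 1, 2 or 5 bases between them were searched on both strands. The 5-base spacing was found in 32 of 32851 windows of this length (0.0974%), any of the 3 spacings in 193 (0.588%). The spacings were counted apart, and the 2 printed matches overlap no other match. Of the 15 windows, the 1 of Rarb held a match. The 250 bases before each start follow, 5′ to 3′ on the strand of the gene, from the windows chr14:16575427-16575726 (minus strand) and chr19:37697558-37697857 (plus strand), with the 5-base-spaced repeat in capitals.
Rarb: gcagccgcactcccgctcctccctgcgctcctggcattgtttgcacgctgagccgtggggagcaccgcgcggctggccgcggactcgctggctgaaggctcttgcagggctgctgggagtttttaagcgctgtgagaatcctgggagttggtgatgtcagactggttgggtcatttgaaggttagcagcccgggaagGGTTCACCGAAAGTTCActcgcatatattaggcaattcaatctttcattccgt
Cyp26a1: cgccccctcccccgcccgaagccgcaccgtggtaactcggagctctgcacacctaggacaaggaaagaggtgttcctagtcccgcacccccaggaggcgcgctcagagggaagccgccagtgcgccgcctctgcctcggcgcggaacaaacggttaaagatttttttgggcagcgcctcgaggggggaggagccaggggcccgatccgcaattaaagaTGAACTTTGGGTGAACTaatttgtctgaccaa
The Rarb repeat begins 53 bases before the start and reads along the gene, and that of Cyp26a1 begins 32 bases before and reads on the opposite strand. The genes differ in level: Rarb was called higher in size-selected samples, while Cyp26a1 had 4 counts over those 8 samples and 0 in whole spleen. A match says only that these letters are in the window.

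Rarg (ENSMUSG00000001288, chromosome 15, 102234938 to 102257517, minus strand), the receptor known from skin and cartilage, had size-selected levels of 6.47, 8.3 and 13.6 CPM and whole spleen levels of 3.43, 3.69 and 5.25 CPM. The groups did not overlap. Means were 8.66 ± 2.37 and 4.06 ± 0.689 CPM (SD, n = 8 each), and the log2 fold change, with its SE, was 1.09 ± 0.18 (edgeR adjusted p = 2.45e-05), higher in 8 of 8 pairs. The largest pair difference, 1.95, was that of number 427 and the smallest, 0.61, that of number 460.

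The makeup of the receptor family differed between the groups. Rara gave 93.6 ± 1.04% of the summed receptor counts per kilobase in whole spleen and 80.9 ± 5.36% in size-selected samples (SD, n = 8 each), a difference of -12.7 percentage points, lower in 8 of 8 pairs. Its two-sided exact permutation p was 0.000155, the smallest that 8 against 8 can give. Rarg rose from 6.13 ± 1.04% to 15.6 ± 5.11% (exact permutation p = 0.000155) and Rarb from 0.259 ± 0.591% to 3.52 ± 1.24% (exact permutation p = 0.000311). The groups did not overlap for Rara, at 69.4% to 86.2% and 92.1% to 95.0%. These shares carry the same data as the fold changes of the 3 receptors and are no separate evidence. Rara held the largest share in all 16 samples.

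**Figure D2:**
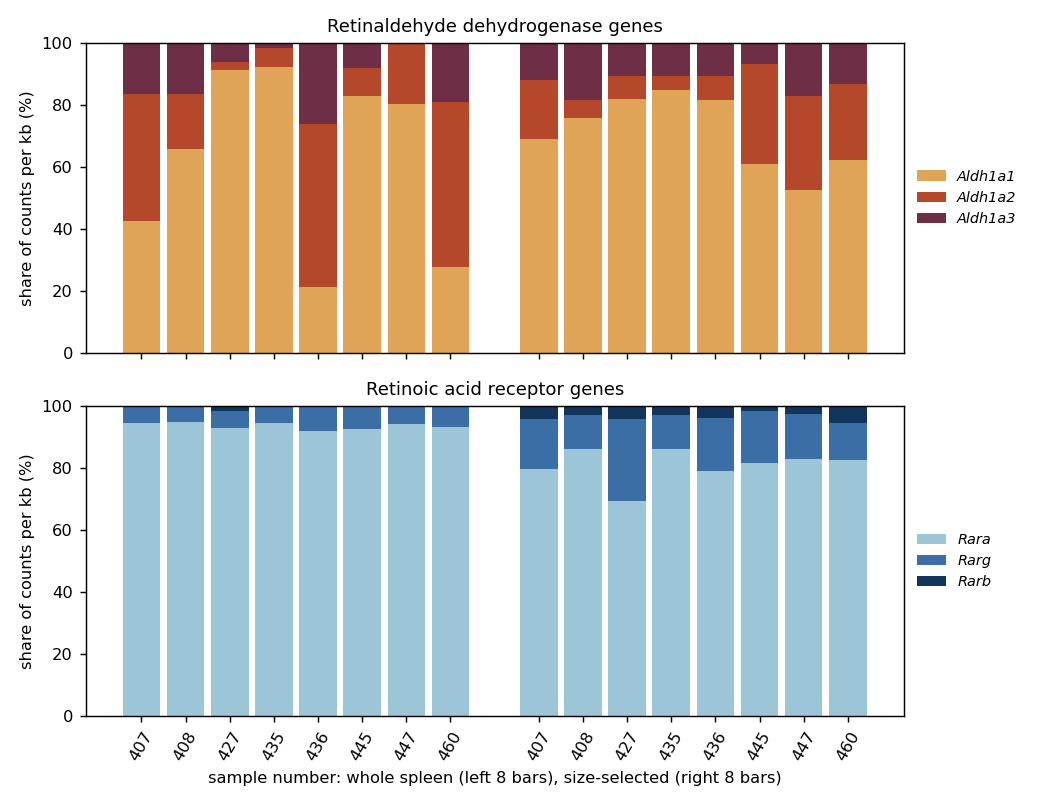
Share (%) of each gene in the summed counts per kilobase of its family, for the 3 retinaldehyde dehydrogenase genes (top) and the 3 receptor genes (bottom), with 1 stacked bar per sample, whole spleen on the left and size-selected on the right. Rara fills 92.1% to 95.0% of the whole spleen bars and 69.4% to 86.2% of the size-selected bars, while the enzyme shares vary widely within whole spleen.

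Set in order by CPM per kilobase of longest transcript, size-selected samples had Rara first (15.5 ± 1.87), then Aldh1a1 (11.6 ± 6.76), Rarg (2.93 ± 0.803), Aldh1a2 (2.46 ± 1.6), Aldh1a3 (1.85 ± 0.718), Stra6 (1.41 ± 0.697), Rarb (0.668 ± 0.23), Crabp1 (0.34 ± 0.31) and Crabp2 (0.0204 ± 0.0416, all SD, n = 8). Between neighbours in that order, only the ranges of Aldh1a1 and Rarg did not overlap (lowest 4.84 and highest 4.62), and that separation ended on restored counts and with the mean transcript length. Whole spleen had Rara at 21 ± 0.895, Aldh1a1 at 1.69 ± 1.69, Rarg at 1.38 ± 0.233, Aldh1a2 at 0.34 ± 0.178, Aldh1a3 at 0.184 ± 0.114, Stra6 at 0.147 ± 0.103, Crabp2 at 0.0867 ± 0.0765, Rarb at 0.0567 ± 0.127 and Crabp1 at 0. There the neighbours Rara and Aldh1a1, and Rarg and Aldh1a2, did not overlap in range, while the other neighbours did; with the mean transcript length, Rarg came second there and only Rara stood apart from its neighbour. With the mean length of annotated transcripts in place of the longest, Aldh1a3 (4.33) and Stra6 (3.15) came before Aldh1a2 (2.46) in the size-selected samples. Per length of the longest transcript, the ranges of Rara and Aldh1a1 overlapped in size-selected samples and not in whole spleen.

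**Figure D3:**
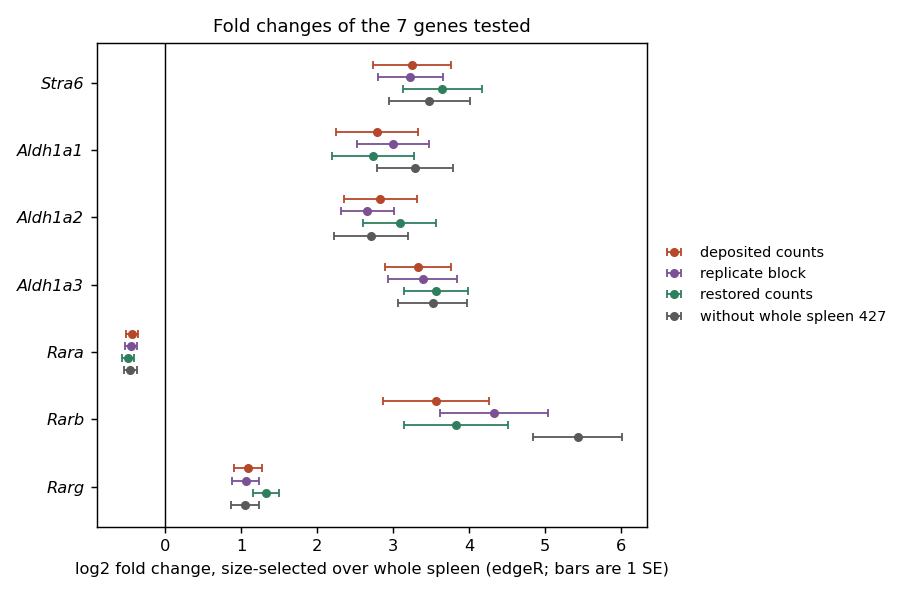
Log2 fold change of size-selected over whole spleen for the 7 genes past the count filter (points) with 1 standard error (bars), under 4 settings in 4 colours: deposited counts, the shared number as a replicate block, restored counts and no whole spleen 427. Rara lies below 0 and the other 6 genes above 0 in all 4 settings, and Rarb moves from 3.57 to 5.43 without whole spleen 427.

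For 6 of the 9 genes, the deposited size-selected values carry a factor. In those columns, values of Aldh1a2, Aldh1a3, Crabp2, Rarb and Rarg equal 2-decimal values multiplied by a constant of the column (0.7699 to 0.8579), and those of Stra6 by a lower one (0.6587 to 0.7893), while Aldh1a1, Crabp1 and Rara carry none. No label or file header mentions these constants. Dividing them out gave restored counts, on which log2 fold changes were 3.65 for Stra6, 2.74 for Aldh1a1, 3.09 for Aldh1a2, 3.57 for Aldh1a3, -0.49 for Rara, 3.83 for Rarb and 1.33 for Rarg, all called in the same direction. The share of Rara in size-selected samples was 77.6 ± 5.77% (SD, n = 8) on restored counts. Levels and ratios between these genes in the size-selected group shift with the constants, and the deposited values are used elsewhere in the text.

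Of 11 other genes of retinol uptake and storage, 6 passed the filter, 5 were called higher and 1 lower, beside 37.5% and 30.4% of all genes tested (median log2 fold change 1.84, against 0.05). In this and the next lists too, a gene low in whole spleen, such as Lrat, could pass the filter only through the size-selected samples, so counts and medians are descriptions. Scarb1, a lipoprotein receptor that takes up carotenoids, rose by 2.12 and Stra6l, a homologue of Stra6 known as a retinol transporter, by 1.15 on the log2 scale. Dgat1, which can esterify retinol, was lower (-0.81, edgeR adjusted p = 0.0018). Lrat, the enzyme that stores retinol as esters, was singled out after its values were seen: it was at 14.9 ± 7.3 against 0.186 ± 0.207 CPM (SD, n = 8 each; log2 fold change 6.3, edgeR adjusted p = 1.71e-08).

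Of 17 genes of retinol oxidation, 12 passed the filter, 6 were called higher, 2 lower and 4 not at all (median log2 fold change 0.52), beside 37.5% and 30.4% of all genes tested. Calls in both directions are thus no feature of this list. Rdh10, the dehydrogenase known to supply retinaldehyde in the embryo, rose from 8.38 ± 1.42 to 84.8 ± 25.5 CPM (SD, n = 8 each; log2 fold change 3.34, SE 0.21, edgeR adjusted p = 2.54e-10). Adh1, an alcohol dehydrogenase, and Dhrs3, which reduces retinaldehyde back to retinol, rose by 1.2 and 1.04 on the log2 scale. Rdh12, a further retinaldehyde reductase, was lower (-1.09, edgeR adjusted p = 0.000107). On library totals the counts were 7 higher and 1 lower, and on restored counts 6 higher and 3 lower. None of the 3 breakdown genes passed the filter in edgeR's test. With no filter, edgeR called 1 of them, Cyp26b1 (97 counts over size-selected and 6 over whole spleen samples, adjusted p = 0.00155), which the authors' deposited table lists at a log2 fold change of 3.71. Cyp26c1 had 1 count over size-selected samples and 0 in whole spleen.

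Of 13 receptor partners and cofactors, all past the filter, 6 were called higher, 4 lower and 3 not called (median log2 fold change 0.17), near the 37.5% and 30.4% of all genes tested, and on restored counts 5 higher and 3 lower. The RXR genes, whose products pair with the retinoic acid receptors, differed among themselves. Rxra rose from 16.6 ± 5.12 to 83.7 ± 26.3 CPM (SD, n = 8 each; log2 fold change 2.33, edgeR adjusted p = 1.16e-08) and Rxrg from 0.77 ± 0.321 to 8.52 ± 4.21 CPM (3.47, edgeR adjusted p = 6.18e-08). Rxrb was not called, at 65.1 ± 7.33 and 70.7 ± 7.68 CPM (-0.12, edgeR adjusted p = 0.245; named after its values were seen). Ncor1, a corepressor that unliganded receptors bind, fell (log2 fold change -1.06, edgeR adjusted p = 2e-06), and by less on restored counts (-0.69, edgeR adjusted p = 0.00015). Nrip1, a corepressor of liganded receptors, rose by 0.72.

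Of 21 genes known as targets of retinoic acid in other tissues, 12 passed the filter, 11 were called higher and 1 lower, beside 37.5% and 30.4% of all genes tested (median log2 fold change 2.95, against 0.05). This count and median describe the list and are no sign of a response. Rarres2, the chemerin gene, rose from 1.63 ± 1.05 to 109 ± 38.2 CPM (SD, n = 8 each; log2 fold change 6.07, edgeR adjusted p = 1.51e-10). Nr2f2, an orphan receptor, rose by 4.67, Gata6, a transcription factor of mesoderm and endoderm, by 4.04, and Meis1, a homeobox factor, by 3.93 on the log2 scale. The summed levels of fibroblast and endothelial markers given above moved the same way, and their part in these counts was not tested. The 1 gene called lower was Ccr9, the gut-homing receptor of lymphocytes (-0.63, edgeR adjusted p = 0.00683; named after its values were seen). All 3 regulators of spleen mesenchyme listed were called higher, beside the same 37.5% of all genes tested: Tlx1 at 28.3 ± 11.3 against 0.477 ± 0.612 CPM (5.91), Tcf21 at 76.9 ± 37.6 against 1.35 ± 1.02 CPM (5.85) and Wt1 at 2.53 ± 1.0 against 0.0432 ± 0.0497 CPM (5.59; SD, n = 8 each).

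**Figure D4:**
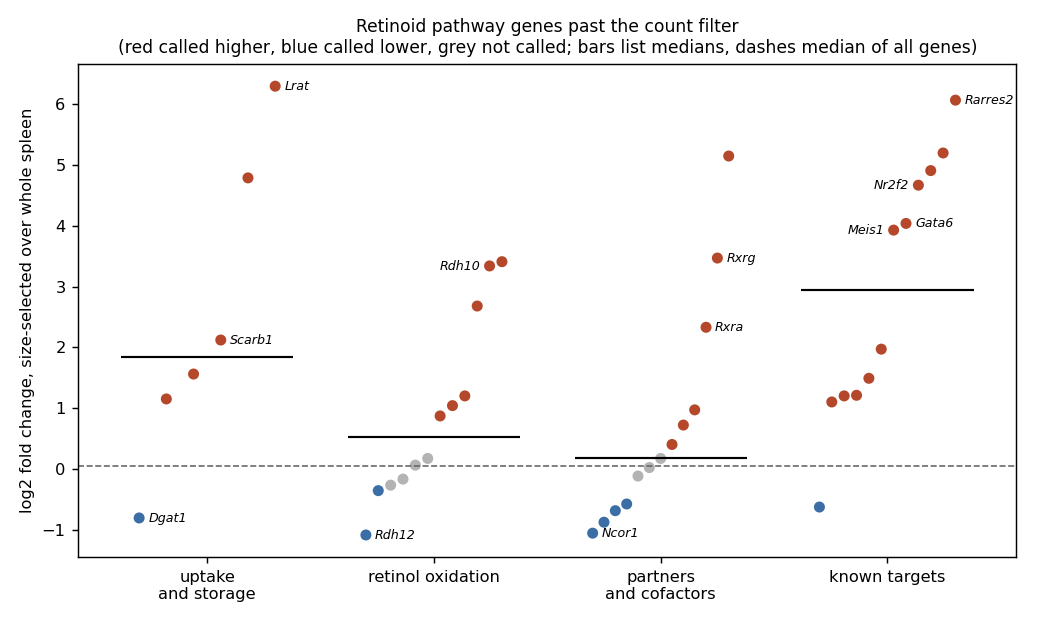
Log2 fold change of size-selected over whole spleen (edgeR) for each gene past the count filter in 4 lists of retinoid genes, in red where called higher, blue where called lower and grey where not called; black bars are list medians and the dashed line is the median of all genes tested (0.05). Uptake and storage genes and known targets lie mostly above 0, while retinol oxidation genes and receptor partners lie on both sides.

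The size-selected samples varied among themselves in which other cells' markers they held, and 1 of the 9 genes followed such a list. Each of the 7 genes past the filter was correlated across the 8 size-selected samples with the mean log2 CPM of 5 marker lists, 35 relations in all. Aldh1a2 rose with the mesothelial list (Pearson r = 0.90, exact permutation p = 0.000422, adjusted 0.0148; Spearman rho = 0.98, exact permutation p = 0.000397, adjusted 0.0139). Without samples 408 and 445, the 2 farthest from the median of the list, r was 0.75 (exact permutation p = 0.0375, n = 6). The mesothelial markers summed to 48.9 CPM in sample 408, the lowest in Aldh1a2, and to 325 CPM in sample 445, the highest. With the mean of each sex removed, a check added after the data were seen, r was 0.79 (exact permutation within the sexes, p = 0.0122, not adjusted). The order of the 4 females was the same in both measures (rho = 1.0), and that of the 4 males was not (rho = 0.8).

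No other relation passed the adjustment, with 8 of 35 under an unadjusted 0.05. Aldh1a1 and the fibroblast list came nearest (r = 0.92, exact permutation p = 0.00325, adjusted 0.0569). Their rho was 0.76 (exact permutation p = 0.0368, adjusted 0.288), and r was 0.61 without samples 427 and 436 (exact permutation p = 0.221). Leaving out the samples farthest from the median also narrows the range, so whether that relation rests on them was not settled. Rarg and the endothelial list gave r = 0.86 (exact permutation p = 0.00506, adjusted 0.059; rho = 0.71, exact permutation p = 0.0576, adjusted 0.288) and 0.84 without samples 408 and 435. With the glial list, Aldh1a1 gave r = 0.79 and rho = 0.74 (exact permutation p = 0.0217 and 0.0458, adjusted 0.139 and 0.288). Its r was 0.052 without samples 427 and 436. Aldh1a2 and the glial list gave r = -0.24 and rho = -0.6 (exact permutation p = 0.58 and 0.132, adjusted 0.7 and 0.309). Size-selected 436 was highest and 427 next in both Aldh1a1 and Aldh1a3, while 445 was highest in Aldh1a2 and lowest in Aldh1a3.

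**Figure D5:**
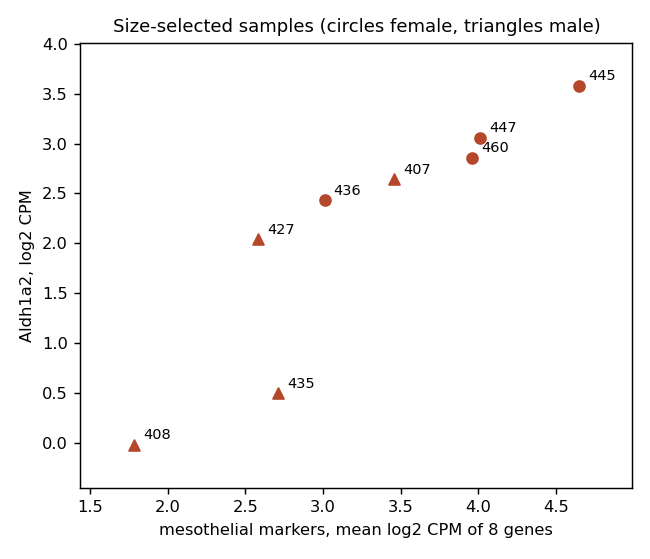
Log2 CPM of Aldh1a2 against the mean log2 CPM of 8 mesothelial markers in the 8 size-selected samples, each point labelled by sample number, circles for females and triangles for males. Points run from sample 408 at the lower left to sample 445 at the upper right (r = 0.90), with sample 435 next above sample 408 in Aldh1a2.

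Among 10104 genes of at least moderate level, the 3 whose log2 CPM followed each gene most closely across the 8 size-selected samples were found by Pearson r, which is a description of highest values and carries no test. Aldh1a1 ran with Serpine2, Lox and Olfml2b (r = 0.98 each), which encode a protease inhibitor, a collagen cross-linking enzyme and a matrix protein. Rarg ran with Il34, Rnf215 and Ddr1 (0.98 each), of which Il34 encodes a macrophage growth factor and Ddr1 a collagen receptor. Rara ran with Afg3l1, Tcof1 and Parp1 (0.98 each), the last a DNA repair enzyme. Aldh1a2 ran with Pank3 (0.97), Gpr107 (0.96) and Stx6 (0.96), and Aldh1a3 with Abca9 (0.96), Olfml1 (0.94) and Ankrd27 (0.94). Rarb ran with Sec31a (0.96), Tmem214 (0.95) and Lpin2 (0.92), and Stra6 with Ccl22 (0.96), Chst2 (0.96) and Slc7a11 (0.95). For Stra6 and Ccl22, r fell to 0.41 without the 2 samples farthest from the median.

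None of the 9 genes was called between the sexes. In whole spleen, edgeR called 0 of 5 tested (background 0.194% of 13383 genes), with 0 under an unadjusted 0.05 and 0 by DESeq2 or limma-voom. In size-selected samples it called 0 of 7 (background 0.0397% of 15127 genes), with 1 under an unadjusted 0.05 by edgeR, DESeq2 and limma-voom alike. That gene was Aldh1a2, at 8.09 ± 2.77 CPM in the females against 3.05 ± 2.46 CPM in the males (SD, n = 4 each; log2 fold change 1.4, SE 0.54, edgeR adjusted p = 0.999). The mesothelial markers were also higher in most females (116 to 325 CPM against 48.9 to 136 CPM in males), and their part was not tested. The fraction difference did not differ detectably between the sexes: edgeR's interaction term called 0 of 7 (background 0% of 15760 genes), with 0 under an unadjusted 0.05 and 0 by DESeq2 or limma-voom. The largest interaction, that of Rarb, was 2.39 (SE 1.5, edgeR adjusted p = 1) on the log2 scale.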

How the data were processed

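Estimated counts per gene were deposited by the authors for 16 samples. Per the submitters' processing notes, Trim Galore, STAR, RSEM and DESeq and the build mm10 were used, with no role or version given. In the size-selected columns, 3898 genes hold values with more than 2 decimals, which constants found from the values reduce to 2-decimal values in every sample for 3706 of them and not for 192. The authors' deposited comparison gives log2 fold changes with standard errors, adjusted p-values and mean TPM per group, per the file headers. Groups and numbers come from the labels. Where nothing says that samples are separate animals, p-values measure the spread between these samples.

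The 9 genes and all lists were chosen with earlier results of these data known. Estimated counts were rounded for edgeR 4.0.16 in R 4.3.3 (filterByExpr, minimum count 10, TMM scaling, quasi-likelihood F test, group as the only term, all 16 samples, Benjamini-Hochberg over all genes tested). The sex comparisons used 8 samples each. CPM uses scaled totals, and log2 CPM a prior count of 2. Shares were compared over all 12870 splits, and correlations over all 40320 pairings, with scipy 1.17.1. Coordinates (1-based) and transcript lengths come from GENCODE M21 on GRCm38, which held 54723 of 54838 identifiers. Promoter windows are RefSeq's. Intervals and floors cover counting error only. The genes named are the 9 and, per list, the 4 called genes with the largest log2 fold change whose mean log2 CPM reached 1 and whose 8 pairs had 1 direction, with Wt1, Tlx1 and the 3 most similar genes (from a mean log2 CPM of 3 up) of each of the 7. Of these, 1 gene that this rule names is not reported here.

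Same-numbered samples deviated together from their groups, so pair differences are given by number. The main fits and the permutation tests of shares did not use this pairing, which entered as an alternative. Deviations correlated by 0.12 to 0.38 within numbers (mean 0.21) and by -0.029 on average between numbers. All 8 of 8 size-selected samples correlated best with their own number. In a simulation that moved 200 genes by 2 (log2), the fraction fit recovered 96% of 199 that passed the filter. It also called 13 unmoved genes. The genes moved had higher mean counts than Rarb, Crabp1 and Crabp2, and changes as small as that of Rara were not simulated. With 9855 genes called in the data, scaling under so wide a shift was not tested by it. DESeq2 1.42.0, limma-voom (limma 3.58.1), other scalings, no filter, the replicate block, sex as a covariate, restored counts and left-out samples were alternatives.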

Additional observations from a re-analysis of the deposited data

Results flagged for a closer look

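Samples were screened for values far from the rest of their group, the gap to the nearest sample, as a part of the group's range, being over Dixon's critical value. Of 22 groups screened, 3 were marked, where chance marks about 1 in 20 if values are normally distributed. That rate does not hold for Rarb in whole spleen, where 5 of 8 samples had 0 counts and tied at -2.91. Rarb in whole spleen 427 had a log2 CPM of 0.348, against -2.91 to -1.61 in the other 7. Stra6 in size-selected 435 had a log2 CPM of -1.12, against 1.71 to 2.87 in the other 7; on deposited counts this is 5.869 against 45.51 to 129.4. The share of Rara among the receptors in size-selected 427 was 69.4%, against 78.9% to 86.2% in the others, with Rarg at its highest (13.6 CPM) and Rara at its lowest (40.9 CPM) there.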

How the results depend on the processing

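The 7 genes tested kept their direction and call under all 19 alternatives each, from 2.37 to 3.33 for Aldh1a1, 2.53 to 3.09 for Aldh1a2, 3.11 to 3.77 for Aldh1a3, -0.55 to -0.31 for Rara, 3.37 to 5.43 for Rarb, 0.94 to 1.33 for Rarg and 3.08 to 3.65 for Stra6 on the log2 scale. Restored counts combined with the replicate block or with no filter, the list counts by setting and the order of levels by setting were chosen after seeing the data. The replicate block called 10076 genes in place of 9855 and changed no call of the 9 genes; for the share of Rara (-12.7 points), exact sign flips of the 8 pairs gave p = 0.00781, the smallest they can give. Among the marker lists, the replicate block called 4 of 6 red pulp macrophage markers higher, in place of 3. It called 6 of 6 erythroid markers lower, in place of 2, and 1 T cell and 1 pancreatic acinar marker higher. On restored counts with the block, 6 of 6 red pulp macrophage markers were called higher. With no filter, 7 of the 9 genes were called higher, Crabp1 being added. On restored counts, of the retinoid lists, Ppard and Ncoa1 lost their call (edgeR adjusted p = 0.0677 and 0.0555, log2 fold changes of -0.88 and 0.4 becoming -0.64 and 0.35) and Rdh14 gained one (0.0326); of the marker lists, Hbb-bs lost (0.0554) and Cd5l gained one (0.00883). The sex comparison in whole spleen called 26 genes, but 273 with no filter, 521 by DESeq2 and 7 to 261 with 1 sample left out, the highest without sample 427. That in size-selected samples called 6, and 22 by DESeq2. The interaction called 0, with 744 of 15760 under an unadjusted 0.05, and 3 by DESeq2, 3 with the replicate block and 0 to 1 with 1 number left out. The cause was not tested. Low counts limit Crabp1, Crabp2 and whole spleen Rarb.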
